A study of Drosophila melanogaster with 4 samples.

Results

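The genes described here were detected in control libraries labelled as sorted intestinal stem cells of adult Drosophila melanogaster. They were at or near the detection limit after knockdown of Piwi. They were selected on these levels, as the rows with at least 3 FPKM in both mCherry RNAi libraries and less than 1 FPKM in both Piwi RNAi libraries. FPKM corrects the number of sequenced fragments for how long a transcript is and how deep a library is, so it can be compared between genes of different length. Of 15495 rows in the table, 34 met these levels. Rows with names starting snoRNA, scaRNA, snRNA, CR, Jon, Cyp, Gst or Tsp were left out, which removed 10 small nucleolar or Cajal body RNAs, 2 copies of the U2 small nuclear RNA and 2 cytochrome P450 genes and left 20 genes. The levels of the comparison itself chose these genes, so their fall is a description and not a test.

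The series holds 4 libraries of sorted intestinal stem cells, 2 expressing RNAi against mCherry, a foreign fluorescent protein, and 2 expressing RNAi against Piwi. They are called control and knockdown libraries here. Piwi is an Argonaute protein that silences transposable elements with the help of small RNAs. All flies were kept for 7 days at 29 °C to express the RNAi, and each library came from a pool of 100 dissected guts. The labels of the mCherry RNAi libraries name a yw source and those of the Piwi RNAi libraries name Piwi RNAi. The labels say nothing of the driver, the sorting marker, or the sex and age of the flies. The FPKM values summed to between 900475 and 1050749 per library. The depth estimated from the spacing of low values was 1620000 to 2310000 fragments. The stem cell and enteroblast factor esg had 239.7 and 301.9 FPKM in the control libraries and 415.9 and 378.5 FPKM in the knockdown libraries, so the labelled cell type carried its marker in all 4 libraries. The targeted gene piwi was low throughout, at 0.495 and 1.94 FPKM in the controls and at 0.208 and 0.442 FPKM after knockdown.

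The epithelium of the fly midgut is renewed by intestinal stem cells, which divide to give enteroblasts and, from these, absorptive enterocytes, or give rise to enteroendocrine cells. Enteroendocrine cells store peptide hormones in dense core vesicles and release them when channels and receptors of the cell sense nutrients, microbes or irritants. Their genes therefore fall into hormone precursors, enzymes that process the precursors, proteins of vesicle release, fate-determining transcription factors and sensory receptors. Visceral muscle surrounds the epithelium and, like enterocytes and neurons, can be carried into a sort.

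The 20 genes had modest levels in the control. Their mean in mCherry RNAi ran from 3.24 to 13.8 FPKM with a median of 5.66, against a median of 17.9 FPKM over the 6353 rows with at least 3 FPKM in both mCherry RNAi libraries. Of these 6353 rows, the 34 named above are 0.535%. In Piwi RNAi, 8 of the 20 were above 0 in both libraries, 6 were listed at 0 in 1 library and 6 were listed at 0 in both. The group means were 6.66-fold to 74.6-fold lower in Piwi RNAi for the 14 genes not listed at 0 in both libraries. For comparison, 9 rows met the mirror image of the rule, with at least 3 FPKM in both Piwi RNAi libraries and less than 1 FPKM in both mCherry RNAi libraries. Fewer cells of a type and less RNA per cell cannot be told apart in such pooled samples.

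**Figure D1:**
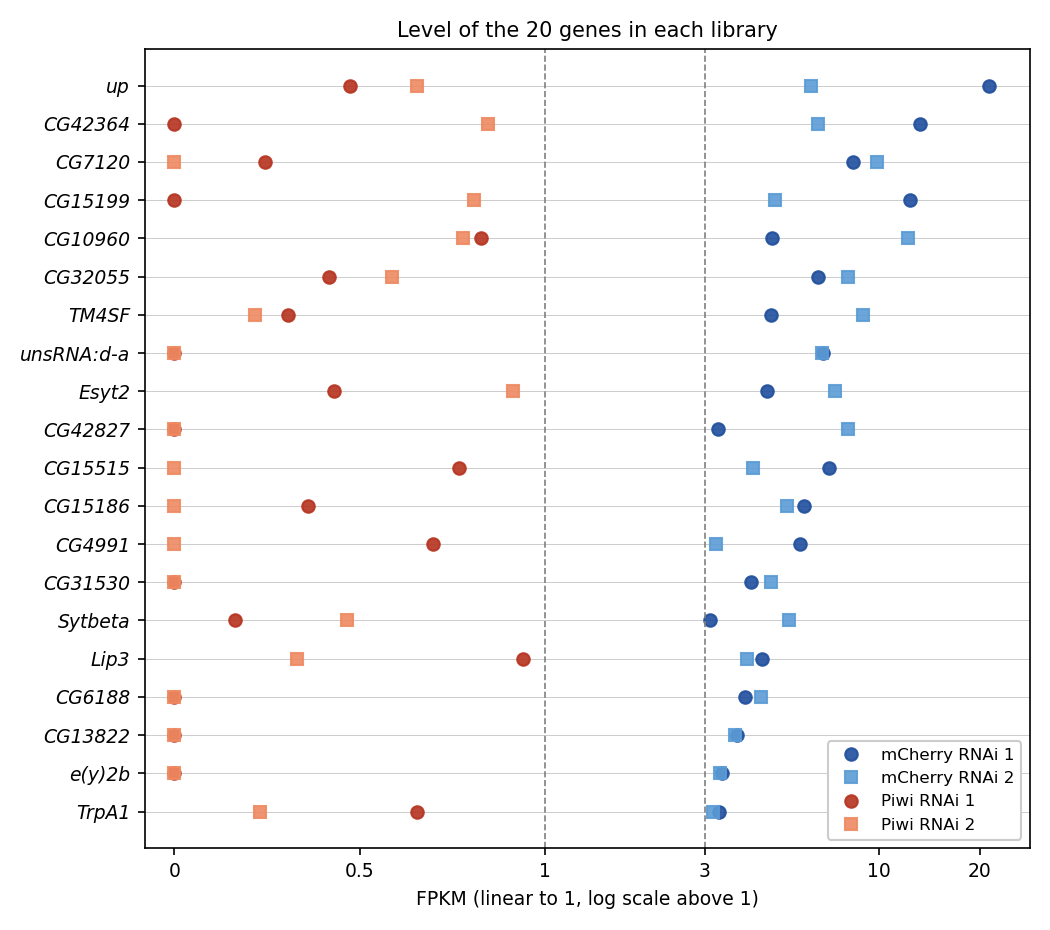
FPKM of each of the 20 genes (rows, in order of the mCherry RNAi mean) in the 4 libraries; the x axis is linear to 1 FPKM and logarithmic above, and the dashed lines mark the limits of 1 and 3 FPKM that chose the genes. All mCherry RNAi points lie to the right of 3 FPKM, up to 21.3 FPKM for up in replicate 1, and 6 genes have both Piwi RNAi points at 0.

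Of the 20 genes, 2 belong to the enteroendocrine lists used here, 1 to the enterocyte list and 1 to the visceral muscle list. The other 16 were in none of the 19 lists, which also covered neurons, glia, trachea, haemocytes, fat body, germ line, accessory gland, follicle cells, Malpighian tubule, sense organs and stem cells. The enteroendocrine lists together held 98 rows of the table, of which 31 had at least 3 FPKM in both mCherry RNAi libraries. So 2 of these 31, or 6.45%, met the rule, beside 20 of the 6172 rows at that control level whose names were not left out, or 0.324%. At the same control level, 1 of 9 visceral muscle rows and 1 of 30 enterocyte rows met it, so such a share was not particular to the enteroendocrine lists. The lists were drawn up with earlier results of these data known, and the shares are given without a test.

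The sensory member was TrpA1 (FBgn0035934, chromosome arm 3L), a cation channel of sensory neurons that also acts in enteroendocrine cells, where it responds to reactive chemicals. It had 3.31 and 3.18 FPKM in the control libraries, given in replicate order, and 0.654 and 0.231 FPKM in the knockdown libraries. The control libraries were nearly equal, and the mean was 7.33-fold lower in Piwi RNAi. TrpA1 is a long transcript, and its values correspond to an estimated 28.2 and 27.4 fragments against 4.37 and 2.20 when its shortest annotated transcript is used.

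The vesicle release member was Sytbeta (FBgn0261090, 3L), a synaptotagmin, one of a family of membrane proteins that act in vesicle fusion. It had 3.12 and 5.37 FPKM in the control libraries and 0.164 and 0.465 FPKM in the knockdown libraries. Its mean was 13.5-fold lower in Piwi RNAi, from an estimated 24.0 and 41.8 fragments to 0.99 and 4. TrpA1 and Sytbeta were also the members with the smallest values in their lower control library, so both stood just inside the control limit. Other synaptotagmins were looked up after the values were seen. Sytalpha had 1.08 and 3.17 FPKM in the control libraries and 0 and 1.20 FPKM in the knockdown libraries, so its groups overlapped. Syt4 had 0.814 and 0.32 FPKM in the control libraries and was higher in Piwi RNAi, with 4.73 and 5.23 FPKM (log2 difference 1.95 ± 0.44, limma adjusted p = 0.133), which did not pass the threshold of 0.05. The synaptotagmins therefore had values in both directions.

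Several enteroendocrine genes lay close to the limits, and others were lower in Piwi RNAi but stayed above 1 FPKM. Just outside the control limit was Gr61a, a gustatory receptor for sugars, with 2.90 and 4.11 FPKM in the control libraries and 0 and 0.574 FPKM in the knockdown libraries. The prohormone convertase gene amon, which cleaves hormone precursors, had 7.15 and 14.4 FPKM in the control libraries and 0.476 and 1.12 FPKM in the knockdown libraries, so a single library kept it outside. The proneural factor gene tap had 2.66 and 5.95 FPKM against 0.613 and 0.432 FPKM. In each of these 3 genes the groups did not overlap, but they were named because their values lay near the limits. Over all tested genes, 13% had both Piwi RNAi libraries below both mCherry RNAi libraries. Other list genes rose, such as the channel gene ppk28. It had 3.44 and 3.10 FPKM in the control libraries and 6.16 and 4.60 FPKM in the knockdown libraries.

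Among the 31 enteroendocrine list genes, the share of the mCherry RNAi mean that was left in Piwi RNAi ran from 5.30% for CG13565, the Orcokinin hormone precursor, to 192.7% for itp, the ion transport peptide gene. Sytbeta, with 7.41% left, stood in this order between amon with 7.40% and Pal2, an enzyme of peptide amidation, with 8.68%. TrpA1, with 13.6% left, stood between npf, the neuropeptide F hormone, with 12.8% and Nplp2, a neuropeptide-like precursor, with 19.4%. The prohormone chaperone gene 7B2 had 9.76% left, the hormone genes Ast-C and Tk 12.2% each. The ranges of Sytbeta and of TrpA1 over the knockdown libraries overlapped those of both neighbours in this order. The rule allowed only genes with a low share left, so their places near the low end were set by selection. Nothing is read from those places. Genes of other lists also had such shares, such as the enterocyte gene Amy-d with 7.16% left. The median of the 31 was 81.4%, against 132.7% over all 6353 rows at the control level, and 11 of the 31 had a higher mean in Piwi RNAi.

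**Figure D2:**
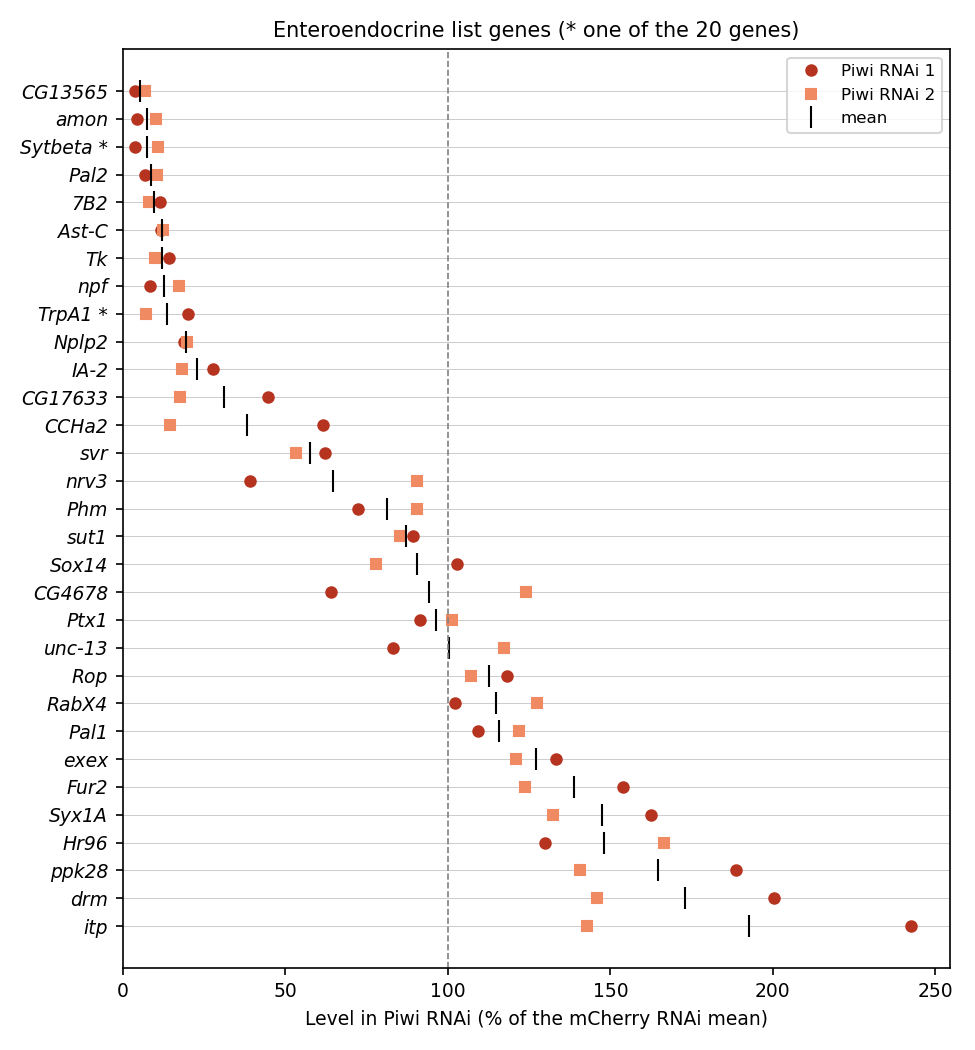
Level in each Piwi RNAi library as a percentage of the mCherry RNAi mean for the 31 enteroendocrine list genes (rows) with at least 3 FPKM in both control libraries; black ticks are means, the dashed line marks 100%, and asterisks mark Sytbeta (7.41% left) and TrpA1 (13.6% left). The genes spread from 5.30% to 192.7%, so the lists did not move as a block. The rule that chose Sytbeta and TrpA1 set their places near the low end.

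In the fit across all genes, 46 rows of the enteroendocrine lists were tested, Sytbeta and TrpA1 among them. The precursor genes CG13565 and Nplp2 fell and 0 rose at a limma adjusted p under 0.05, and 44 did not pass. With any 1 library left out, limma called 0 genes in all, with 619 to 3195 at an unadjusted p under 0.05, so the loss of these calls there says nothing about them. The log2 difference of CG13565 was then −4.67 to −3.82. CG13565 had 1694 and 2739 FPKM in the control libraries and 83.5 and 151.3 FPKM in the knockdown libraries (log2 difference −4.25 ± 0.37, limma adjusted p = 0.0313). Over all tested genes, 0.565% were called lower. Both Piwi RNAi libraries lay below both mCherry RNAi libraries for 18 of the 46, where 13% of all tested genes did so. The median log2 difference of the 46 was −0.32, against 0.37 over all tested genes, both on the log2(FPKM + 1) scale. By role, 6 of the 8 tested hormone precursors and 7 of the 10 tested processing genes had negative differences, as did 7 of 12 vesicle release genes, 6 of 8 receptors and channels and 4 of 8 transcription factors. Together these were 30 of the 46. A negative median was not particular to these lists. It was −0.95 for enterocyte genes, with 42 of 47 negative, and −1.01 for visceral muscle genes, with 15 of 21. Stem cell and enteroblast genes had a median of 0.37, with 5 of 32 negative. The enteroendocrine fate factor pros had 1.71 and 2.62 FPKM in the control libraries and 0.673 and 0.999 FPKM in the knockdown libraries (log2 difference −0.78 ± 0.52, limma adjusted p = 0.349).

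Neurons share much of the secretory machinery with enteroendocrine cells, and 9 rows stood in both an enteroendocrine list and the neuron list. None of the 20 genes was in the neuron list, although TrpA1 and Sytbeta are also known from neurons. Of the 23 neuronal rows, 1 had at least 3 FPKM in both mCherry RNAi libraries. Their summed level was 14.2 and 24.6 FPKM in the control libraries and 12.9 and 13.4 FPKM in the knockdown libraries. Of these rows, 7 were lower in Piwi RNAi and 2 higher with no overlap between the groups, but most of them had a mean under 1 FPKM. The share of such rows over the whole table was not counted, so nothing is read from these counts. Of the 4 tested, 3 had negative differences and 1 was lower with no overlap, where 13% of all tested genes were so. That gene was n-syb, a vesicle protein gene also in an enteroendocrine list. It had 1.48 and 6.80 FPKM in the control libraries and 0.974 and 0.677 FPKM in the knockdown libraries. The pan-neuronal gene elav had 3.89 and 2.36 FPKM in the control libraries and 6.46 and 4.29 FPKM in the knockdown libraries. The part of neurons in the values of TrpA1 and Sytbeta was not tested.

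**Figure D3:**
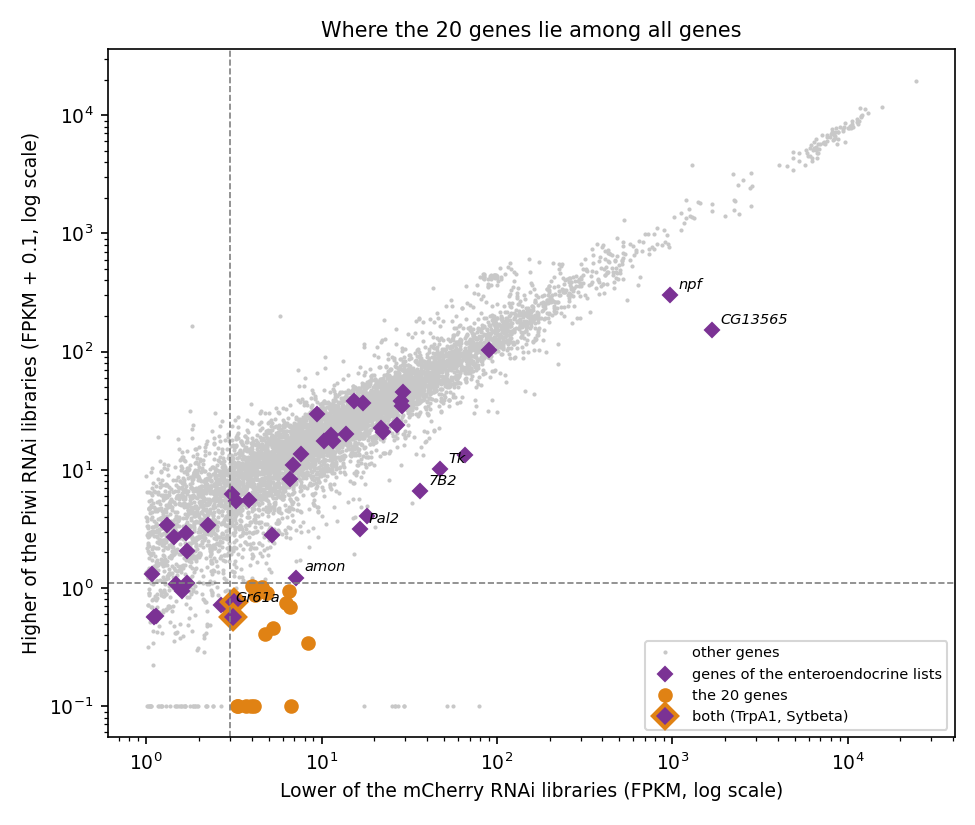
Lower of the mCherry RNAi values (x axis, FPKM, log scale) against the higher of the Piwi RNAi values (y axis, FPKM + 0.1, log scale) for rows with at least 1 FPKM in both mCherry RNAi libraries; dashed lines mark 3 FPKM and 1 FPKM. The 20 genes (orange) fill the low corner of the plane, while enteroendocrine genes of higher control level (purple), such as CG13565 and npf, lie below the grey band without reaching it; grey points inside the corner are the rows left out by name.

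The muscle member was up (FBgn0004169, X), troponin T of the thin filament. It had the highest control level of the 20, with 21.3 and 6.24 FPKM in the control libraries against 0.473 and 0.653 FPKM in the knockdown libraries. The control libraries were 3.42-fold apart, and the mean was 24.5-fold lower in Piwi RNAi. Of the 37 muscle list rows, 7 were above 0 in mCherry RNAi replicate 1 and at 0 in replicate 2, among them the troponin I gene wupA with 11.3 and 0 FPKM. Mhc, the muscle myosin heavy chain, had 5.78 and 0.145 FPKM in the control libraries and 0.0936 and 0.331 FPKM in the knockdown libraries. In that replicate 2 library up had 6.24 FPKM. The summed level of the muscle list was 518.0 and 463.7 FPKM in the control libraries and 563.3 and 481.4 FPKM in the knockdown libraries, most of it from genes that other cells also use, such as Tm1 with 199.6 and 247.3 FPKM in the control libraries. The part of muscle tissue in the level of up was not tested.

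The enterocyte list member was Lip3 (FBgn0023495, 3R), a lipase. It had 4.46 and 4.02 FPKM in the control libraries and 0.940 and 0.331 FPKM in the knockdown libraries, and with 6.66-fold, the smallest fold of the 14 genes not listed at 0 in both knockdown libraries, it stood just inside the limit of 1 FPKM. The summed level of the 55 enterocyte rows was 19870 and 1529 FPKM in the control libraries and 2043 and 944.4 FPKM in the knockdown libraries. Of these rows, 6 and 9 were at 0 in the control libraries and 6 and 7 in the knockdown libraries. Lip3 was nearly equal in both control libraries, as was Myo31DF of the same list with 135.3 and 127.5 FPKM. The list sum differed strongly between them, as did abundant genes such as betaTry with 5237 and 258.0 FPKM. The part of enterocytes in the level of Lip3 was not tested. The related lipase Lip4 had 6.22 and 8.88 FPKM in the control libraries and 4.96 and 2.50 FPKM in the knockdown libraries.

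Membrane transporters and membrane proteins made up a further group, formed after the genes were known. CG10960 (FBgn0036316, 3L), now named nebu and listed as a glucose transporter in RefSeq synonyms, had 4.79 and 12.2 FPKM in the control libraries and 0.826 and 0.779 FPKM in the knockdown libraries. CG4991 (X), of the proton-coupled amino acid transporter family, had 5.79 and 3.25 FPKM against 0.697 and 0 FPKM. Its exons overlap those of CG16700 on the same strand in the current annotation, and that gene had 2.31 and 1.45 FPKM in the control libraries and 0 and 0.376 FPKM in the knockdown libraries, so reads of this pair may not be separable. Of other genes of the family, path had 61.3 and 106.3 FPKM in the control libraries and 168.9 and 117.0 FPKM in the knockdown libraries, and it was not lower.

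TM4SF (FBgn0020372, 2R) is a tetraspanin, a small membrane protein that spans the membrane repeatedly, whose name escaped the exclusion of Tsp names. It had 4.74 and 8.96 FPKM in the control libraries and 0.308 and 0.217 FPKM in the knockdown libraries, a mean 26.1-fold lower. Esyt2 (FBgn0039208, 3R), an extended synaptotagmin that tethers the endoplasmic reticulum to the plasma membrane, had 4.60 and 7.37 FPKM against 0.431 and 0.913 FPKM, a mean 8.92-fold lower. It was in no list. Each of CG10960, TM4SF and Esyt2 was higher in mCherry RNAi replicate 2 than in replicate 1, as were 4344 of the 6353 rows at the control level.

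Enzymes of metabolism and the lysosome were represented by CG6188 and CG13822. CG6188, now Gnmt (FBgn0038074, 3R), encodes glycine N-methyltransferase, which consumes the methyl donor S-adenosylmethionine. It had 3.95 and 4.44 FPKM in the control libraries and was listed at 0 in both Piwi RNAi libraries. Sam-S, which makes the same methyl donor, had 101.1 and 140.3 FPKM in the control libraries and 123.2 and 128.8 FPKM in the knockdown libraries, with overlapping groups. CG13822, now GILT3 (FBgn0039098, 3R), is a lysosomal thiol reductase and had 3.76 and 3.69 FPKM against 0 in both Piwi RNAi libraries. Its relatives CG9796 (GILT1) and CG10157 (GILT2) were present in all 4 libraries, at 83.9 to 87.3 and 6.52 to 14.9 FPKM in the control libraries and at 62.9 to 88.7 and 5.16 to 7.34 FPKM in the knockdown libraries.

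A chromatin-related member and a noncoding member rested on very few fragments. The gene e(y)2b (FBgn0040670, 3R) is a paralog of e(y)2, a subunit of the SAGA coactivator complex, and had 3.39 and 3.33 FPKM in the control libraries and 0 in both Piwi RNAi libraries. These values are an estimated 2.94 and 2.99 fragments, and the gene overlaps exons of Alh on the opposite strand. The parent gene e(y)2 had 11.7 and 21.7 FPKM in the control libraries and 47.7 and 42.6 FPKM in the knockdown libraries, the opposite direction. The small noncoding RNA unsRNA:d-a (FBgn0263489, 2L), now lncRNA:CR43604, is 201 nt long and lies inside dachs. It had 6.81 and 6.74 FPKM in the control libraries, an estimated 0.86 and 1 fragment, and was listed at 0 in both Piwi RNAi libraries.

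The other 8 genes are named here only by CG number. CG7120 (FBgn0035888, 3L) had 8.34 and 9.86 FPKM in the control libraries and 0.244 and 0 FPKM in the knockdown libraries. Its mean was 74.6-fold lower, the largest fold of the 14 genes with a value in Piwi RNAi, and rested on an estimated 43.2 and 51.7 fragments against 0.99 and 0. CG15186 (3R) had 5.96 and 5.30 FPKM against 0.359 and 0 FPKM, and CG32055 (3L) 6.57 and 8.07 FPKM against 0.416 and 0.586 FPKM. These 3 genes had similar values in both control libraries and at least 19.9 estimated fragments in each.

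Of the remaining CG-numbered genes, 4 have transcripts shorter than 1000 nt. CG42364 (2R) had 13.3 and 6.54 FPKM in the control libraries and 0 and 0.844 FPKM in the knockdown libraries, and its exons overlap on the same strand those of CG42362, which had 12.0 and 12.4 FPKM in the control libraries and 16.0 and 25.5 FPKM in the knockdown libraries. CG15199 (X) had 12.4 and 4.87 FPKM against 0 and 0.807 FPKM. CG15515 (3R) had 7.09 and 4.18 FPKM against 0.769 and 0 FPKM. These 3 were higher in mCherry RNAi replicate 1, by 2.03-fold, 2.54-fold and 1.69-fold. CG42827 (3R) had 3.29 and 8.09 FPKM against 0 in both Piwi RNAi libraries and was higher in mCherry RNAi replicate 2. CG31530 had 4.13 and 4.76 FPKM in the control libraries and 0 in both Piwi RNAi libraries. It has since been merged with other models into CG44098 (3R), so no fragment number was estimated for it.

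The 20 genes rested on different numbers of estimated fragments, and a chosen cut of 10 fragments was used to group them. Some genes lay just above this cut, such as Lip3 with 11.9 and 10.9 fragments in the control libraries. Of the 19 with an estimate, 11 had at least 10 fragments in each mCherry RNAi library, and both enteroendocrine genes were among them, as were up, Lip3, CG10960, TM4SF, Esyt2, CG4991, CG7120, CG15186 and CG32055. The other 8 had fewer than 10 in at least 1 control library, and these were the 8 genes with a transcript shorter than 1000 nt. In Piwi RNAi replicate 1, the shallowest library, a single fragment was worth more than 1 FPKM for 6 of the 19 genes even with the longest annotated transcript. For these 6, a value under 1 FPKM there can only mean less than 1 full fragment. Among all rows at the control level with an estimate and without the names left out, 8 of 468 rows (1.71%) with fewer than 10 fragments in the lower control library met the rule. It was met by 5 of 840 (0.595%) with 10 to 20 fragments, 6 of 1672 (0.359%) with 20 to 50, 0 of 1237 with 50 to 100 and 0 of 1924 with 100 or more.

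**Figure D4:**
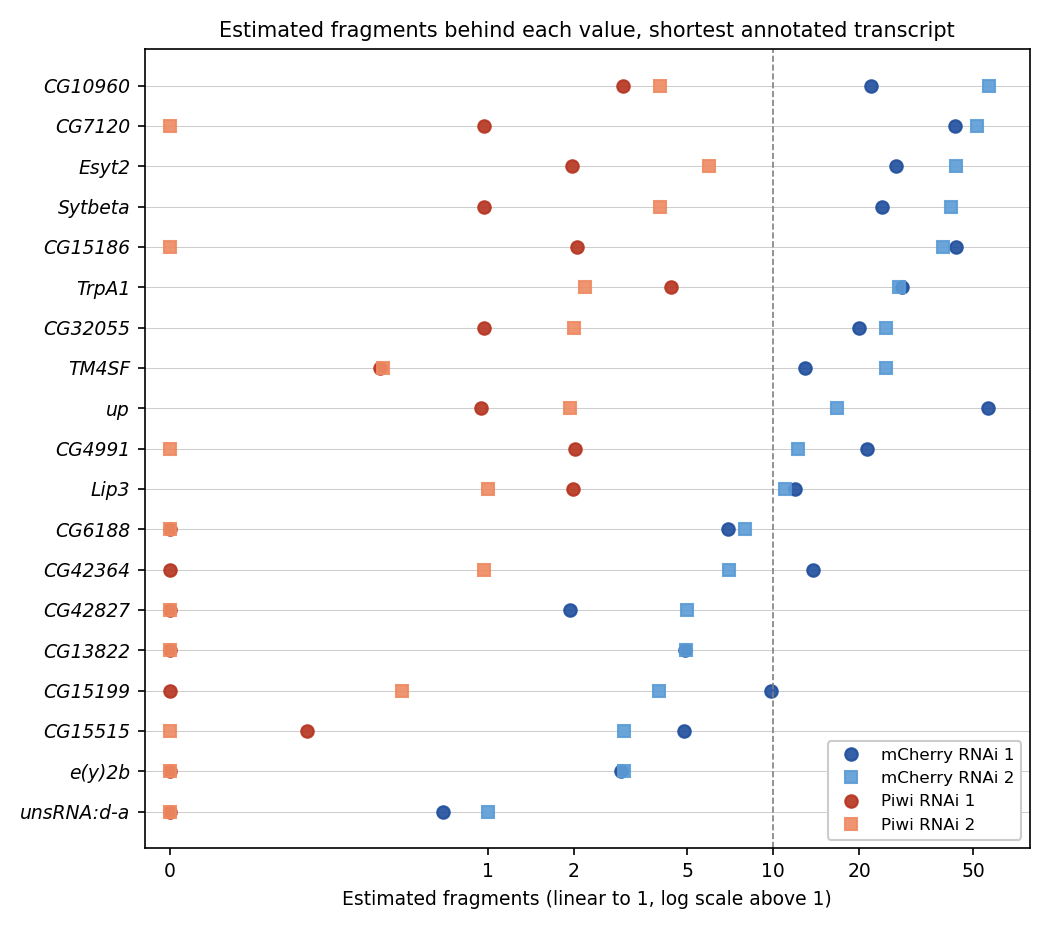
Estimated fragments behind each value for 19 genes (rows, in order of mCherry RNAi replicate 2), taken with the shortest annotated transcript; the x axis is linear to 1 fragment and logarithmic above, and the dashed line marks 10 fragments. TrpA1 and Sytbeta had 24.0 to 41.8 fragments per control library, whereas unsRNA:d-a had 0.86 and 1.

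The rule did not use the ratio between the control libraries itself, but its minimum of 3 FPKM in both limited that ratio for genes of low level. The ratio differed between the lists. Enterocyte list genes at the control level had a median 9.10-fold higher value in mCherry RNAi replicate 1 than in replicate 2, with 27 of 30 higher in replicate 1. Hormone precursors, processing genes and vesicle release genes had median ratios of 0.619, 0.659 and 0.590, with 6 of 7, 7 of 9 and 7 of 7 higher in replicate 2. The other enteroendocrine lists were closer to 1, at 0.978 for the transcription factors with 3 of 5 higher in replicate 2, and at 1.04 for the receptors and channels with 1 of 3, TrpA1 being a member of the latter. The median over all rows at the control level was 0.863, with 4344 of 6353 higher in replicate 2, and 24 of 27 stem cell and enteroblast rows were higher there. Of the 20 genes, 9 were higher in replicate 2 and 11 in replicate 1, with a median ratio of 1.01 and a range from 0.393 for CG10960 to 3.42 for up. Sytbeta had a ratio of 0.582, near the median of the vesicle release genes, and TrpA1 had 1.04. CG42827 had 0.406, TM4SF 0.530 and Esyt2 0.624. No member reached the enterocyte median. The highest member value in a control library was 21.3 FPKM, a level at which the minimum of 3 FPKM leaves no room for such a ratio. The rule itself set no upper limit. Enterocyte genes that met the same minimum had ratios up to 126.3. The part of enterocytes in the members' values was not tested.

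**Figure D5:**
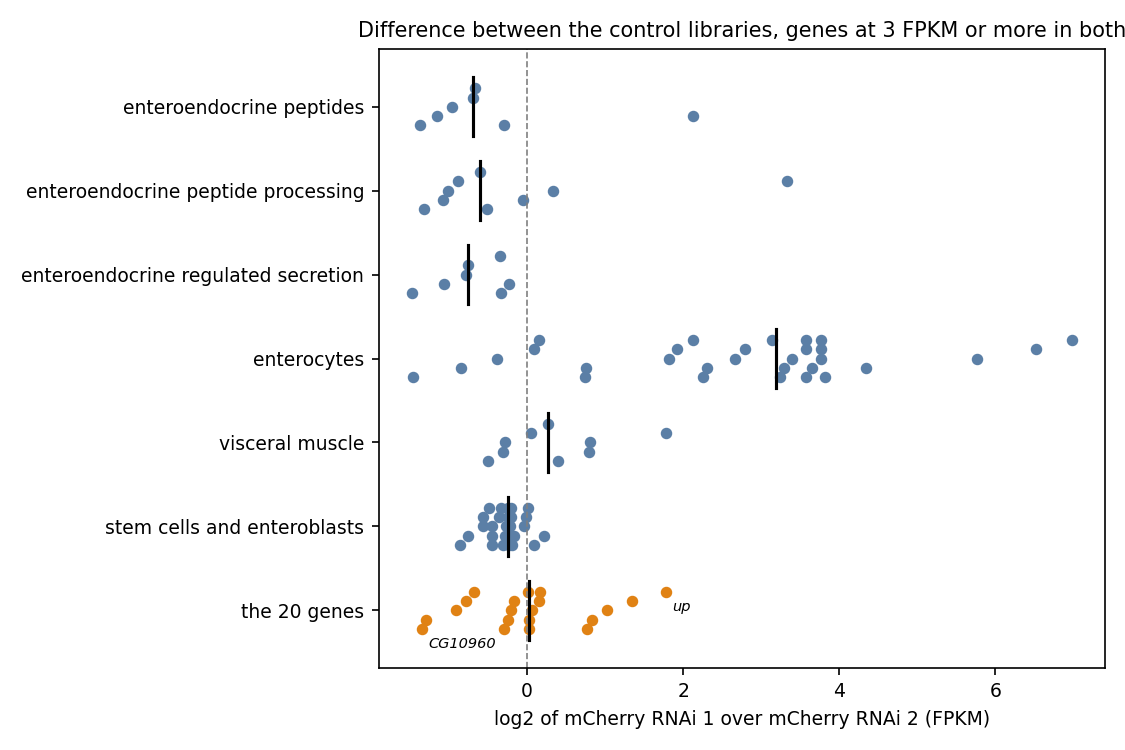
Log2 ratio of mCherry RNAi replicate 1 to replicate 2 for genes with at least 3 FPKM in both (points; black bars are medians) in 6 marker lists and the 20 genes. Enterocyte genes lie far to the right (median ratio 9.10), the 3 enteroendocrine lists drawn here to the left (median ratios 0.590 to 0.659; the other 2, not drawn, had 0.978 and 1.04), and the 20 genes on both sides around a median ratio of 1.01.

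Just outside the limits lay CG17267 and Gr61a on the control side, with 2.89 and 2.90 FPKM in their lower control library, and CG5157 and CG4757 on the Piwi RNAi side, with 1.03 and 1.07 FPKM in their higher Piwi RNAi library. Just inside were TrpA1 and Sytbeta with 3.18 and 3.12 FPKM, and Esyt2 and Lip3 with 0.913 and 0.940 FPKM.

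By position, 9 of the 20 genes are on chromosome arm 3R, 5 on 3L, 3 on X, 2 on 2R and 1 on 2L, where 24.6%, 19.2%, 17.0%, 21.6% and 16.9% of the rows at the control level lie. Exons of 9 of the 20 overlap another gene in the current annotation, 2 of them on the same strand. TrpA1, Sytbeta, up, CG10960 and Esyt2 were among the 11 without such an overlap. In the fit across all genes, limma called 0 of the 20 genes at an adjusted p under 0.05, with 20 at an unadjusted p under 0.05, beside 0.565% of all tested genes called lower. The rule used the same contrast, so nothing is read from these numbers.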

How the data were processed

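The deposited file is a single table of FPKM values, made by the authors, with a column per library. Per the file headers, its columns carry the names that Cufflinks gives, and the submitters' processing notes list TopHat and Cufflinks. Tool versions, build, annotation, strandedness and between-library scaling were not given in the sources used here. Per the labels' protocols, Trizol was used to extract RNA and a TruSeq RNA kit to prepare libraries. The libraries are separate pools of flies per the labels, so p-values reflect how much such pools differ.

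Current symbols, chromosome arms and transcript lengths came from Ensembl BDGP6 and RefSeq tables, matched for 15361 of 15495 rows. Of the 20 genes, 18 matched by identifier and 2 by symbol or synonym. Because the build of the table is not given, no coordinates are printed.

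The FPKM worth of 1 fragment was estimated from the steps of low FPKM values of single-transcript genes of at least 800 nt. In the 4 libraries, 86.8% to 89.4% of these values came within 0.1 of a whole number. Transcripts were shortened by 130 or 140 nt. Fragment numbers depend on the current transcript models and cover counting only.

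The fit was limma-trend (limma 3.58.1, R 4.3.3) on log2(FPKM + 1), Piwi RNAi minus mCherry RNAi, two-sided, over the 8313 genes whose mean reached 1 FPKM, with Benjamini-Hochberg adjustment and a threshold of 0.05. Errors beside log2 differences are standard errors. The log scale understates changes of low genes. The fit and the depth estimate were tested on simulated data. Named genes were members in a marker list, the most abundant members, genes beside the limits and 6 enteroendocrine genes; relatives of members, amon, Pal2, tap, Syt4 and others were added after their values were seen. The members and lists were chosen with earlier results of these data known. Alternatives were other pseudocounts, filters, scalings and limits, the replicate number as a block, and each library left out.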

Additional observations from a re-analysis of the deposited data

How the results depend on the processing

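The direction of each of the 20 genes was the same in all 202 values from other pseudocounts, filters, scalings, a replicate block or a library left out. The rule chose the genes on these same values, so this direction was set in advance and nothing is read from it. The membership depended on the limits. The rule gave 33 genes under median-of-ratios scaling, which raised control values and lowered knockdown values, so all 20 had to be among them. After quantile normalization it gave 16, all of them among the 20 and with TrpA1 and Sytbeta included, so some of the 20 dropped out. It gave 6 at a control minimum of 5 FPKM, 10 at a Piwi RNAi maximum of 0.5 FPKM and 34 with no name left out. With at least 10 estimated fragments in each mCherry RNAi library it gave 11. Applied to 3 libraries it gave 45 to 158, the highest without mCherry RNAi replicate 2 and the others being 56 without mCherry RNAi replicate 1 and 67 without Piwi RNAi replicate 1. The number of members in the enteroendocrine lists was 5 under median-of-ratios scaling (amon, Gr61a and tap joined). It was 0 at a control minimum of 5 FPKM, 1 at a maximum of 0.5 FPKM (Sytbeta), and 2 to 5 with a library left out. Leaving out a library only loosens the rule, so all 20 genes, TrpA1 and Sytbeta included, had to stay.

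Over all genes, limma called 47 lower and 51 higher. The counts were 0 and 0 with no filter on low values (2268 at an unadjusted p under 0.05), 85 and 82 with a minimum mean of 5 FPKM, 10 and 25 after quantile normalization, and 7 and 1 under median-of-ratios scaling, which moved the median of all genes from 0.37 to −0.01. With each library left out they were 0 to 0 lower and 0 to 0 higher, with 619 to 3195 at an unadjusted p under 0.05. With the replicate number as a block they were 105 and 89, and npf, Ast-C, Pal2, 7B2, Tk and amon then passed too (adjusted p = 0.00298 to 0.0462). With the minimum mean of 5 FPKM, 7B2, Tk and Ast-C passed (0.0393 to 0.0455). Same-numbered libraries share only a number, and their deviations from the group means correlated at 0.25 over 8313 genes. CG13565 stayed lower but its adjusted p missed the threshold without the filter (log2 difference −4.25, adjusted p = 0.122), under median-of-ratios scaling (−4.65, 0.0531) and with each library left out (−4.67 to −3.82, 0.105 to 0.477), where no gene passed. Depth limits the 8 genes under 10 estimated fragments most.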
